A study of Mus musculus with 12 samples.

Results

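The comparison described here is between CD8+ and CD4+ dendritic cells of the mouse spleen after 2 h of culture at 37 °C, and rests on 4 of the study's 12 arrays. Both groups were sorted for high CD11c, an integrin chain used to pick out dendritic cells, then by CD8 or CD4 at the surface, and each group holds 2 arrays. The arrays were selected by their titles, and all 12422 probe sets other than the controls were considered. The other 8 arrays are the same 2 subsets taken directly at isolation (fresh), and double-negative (DN) cells that carry neither CD4 nor CD8, fresh and cultured, again 2 arrays a group. No agent, genetic change, strain, sex or age is named in the labels used here, and culture was the step that both groups compared here share. The labels do not say whether replicates came from separate mice, so each p-value reflects how far deposited samples vary within groups, which may be technical variation. That spread was pooled over all 6 groups, so that groups whose arrays varied little lend precision to those whose arrays varied more. In bulk RNA, fewer cells of a type and less RNA per cell cannot be told apart.

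Dendritic cells take up antigen and present it to T cells. In the spleen, the CD8+ subset is known for moving antigen from dying cells onto MHC class I (cross-presentation) and for the transcription factors IRF8 and BATF3, while the CD4+ subset is known for presentation on MHC class II and for IRF4, SIRPα and Notch2 signalling. Dendritic cells of both subsets begin to mature when they are isolated and cultured, with higher CCR7, CD40, CD80 and CD86, and lose part of the surface pattern by which they were sorted.

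The label check gave different results for the 2 sorting markers. Cd8a, the CD8α chain, had intensities of 890.9 and 679.4 on the cultured CD8+ arrays and of -16.7 and -3.9 on the cultured CD4+ arrays. Cd4 had intensities of 270.9 and 112.2 on the cultured CD4+ arrays and of 59.7 and 105.6 on the cultured CD8+ arrays, against 617.3 and 612.8 on the fresh CD4+ arrays. The cultured groups did not overlap for Cd4, but replicate 2 of CD4+ cells lay just above the higher CD8+ array, and the difference of -1.05 ± 0.77 (log2, SE) was not called (adjusted p = 0.561). Itgax, the gene of CD11c, lay between 874.5 and 2374.4 on all 4 arrays, and the groups overlapped.

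Replicate 1 of cultured CD4+ cells stood apart from the other 3 arrays compared. Its noise, the root mean square of its values below 0, was 107.9, against 42.3 to 60.2 on the other 3 arrays compared. The ratio of its 3' to its 5' Gapdh control probe sets, a measure of RNA integrity, was 1.97 against 0.91 to 0.93. Its rank correlation with replicate 2 of its own group was 0.745 over the tested probe sets, below its correlation of 0.770 with replicate 1 of cultured CD8+ cells, while the 2 CD8+ arrays correlated at 0.909. Between the 2 cultured CD4+ arrays, 36.0% of tested probe sets differed by more than 2-fold, against 10.8% between the 2 cultured CD8+ arrays. Between the 2 fresh CD8+ arrays the share was 24.7%, and fresh CD8+ replicate 1 had a Gapdh ratio of 2.55, the highest of all 12 arrays. Cultured DN replicate 1 had a ratio of 1.34 and a noise of 82.5. The part of these differences in the results was not tested, and many of the counts and named calls are given without cultured CD4+ replicate 1.

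Markers of other spleen cells were low or similar, with a few exceptions. Of 14 T cell markers, 11 were below the detection floor on all 4 arrays, including Cd3d, Cd3e and Cd3g, and the summed intensity was 379.4 to 497.4 in CD8+ against 1100.4 to 1122.3 in CD4+ arrays. The macrophage and monocyte list summed to 7977.3 to 12741.9 in CD8+ against 4555.1 to 6599.5 in CD4+ arrays, with Marco, Mrc1, C1qc, Mertk and Siglec1 below the floor on all 4, and the plasmacytoid list to 1391.0 to 1578.3 against 859.1 to 1356.9. The sums overlapped for B cell markers, at 2282.4 to 5018.9 against 2738.5 to 4257.7, and for the plasma cell, NK cell, neutrophil, red cell, platelet, stromal and mast cell lists. Among the tested members of these 11 lists, only Il7r of the T cell list was called. The macrophage list gave 2 calls without cultured CD4+ replicate 1, Cd14 higher in CD8+ cells (2225.7 and 2238.4 against 869.5 and 298.4, adjusted p = 0.0329) and Adgre1 lower (0.0174), against 0.0915 and 0.174 with all arrays. With the experiment number as a block, Cd14 (0.00977), Blk of the B cell list (0.038) and Vwf of the platelet list (0.0192) were called. Il7r was below the floor on the fresh arrays of both subsets, and rose at least 5.83-fold in CD4+ cells in culture (adjusted p = 0.00137). Between the cultured subsets it lay at 105.0 and 116.8 in CD8+ and 412.5 and 767.7 in CD4+ arrays (adjusted p = 0.0365), and cultured DN arrays gave 405.2 and 579.1. Without cultured CD4+ replicate 2 its adjusted p was 0.0635, without CD8+ replicates 1 and 2 it was 0.225 and 0.186, and without any 1 of the DN or fresh CD4+ arrays it was 0.0534 to 0.0662. The part of other cells in the results was not tested.

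After culture, 87 probe sets were higher in CD8+ cells (1.41% of the 6159 tested) and 54 were lower (0.877%), which is 141 in all (2.29%). A probe set was called at an adjusted p under 0.05 in limma's moderated test, fitted over all 12 arrays with adjustment over all probe sets tested. By genes, with 1 probe set for each of 4735, 75 were higher (1.58%) and 49 lower (1.03%), 2.62% in all. The 2 groups did not overlap for any of the 141. That holds for many probe sets that were not called too, since 19.8% of all tested had both CD8+ arrays above both CD4+ arrays and 20.6% had both below. Of the 141, 95 were also called without cultured CD4+ replicate 1, and all 141 kept their direction.

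**Figure D1:**
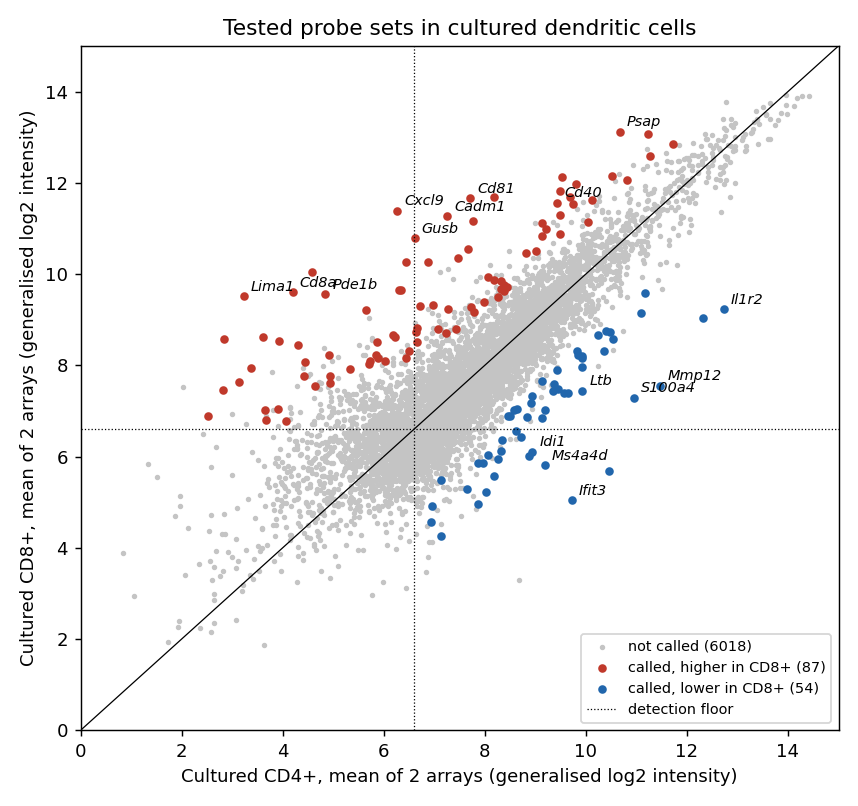
Mean generalised log2 intensity of each tested probe set on the 2 cultured CD4+ arrays (x axis) and the 2 cultured CD8+ arrays (y axis), with the diagonal of equal level and the detection floor dotted. The 87 probe sets called higher in CD8+ cells (red) include Cd8a, Lima1 and Pde1b, whose CD4+ means lie below the floor, and the 54 called lower (blue) include Il1r2 at a high level in CD4+ cells.

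The number of calls turned on single arrays. Leaving out cultured CD8+ replicate 1 left 35 calls, of which 33 were among the 141, and leaving out CD8+ replicate 2 left 28, of which 26 were. Leaving out cultured CD4+ replicate 2, which leaves the noisy array alone in its group, gave 551 calls, 448 of them higher in CD8+ cells. Leaving out an array of the fresh CD4+ group gave 87 or 86 calls and of the fresh DN group 93. In each such fit the lone array of a group was assumed to vary like the other groups. Of the 141 probe sets, 16 were called under every alternative in which they were tested, at most 25. Some of these, such as Cd8a and Pde1b, were tested in 24. Il1r2 and Mmp12 are each among the 16 by more than 1 probe set. The genes described most fully below are mostly from these. An intensity below the floor of 91.38 (2 times the noise constant) is a bound, so that folds against such a group are written "at least".

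Several genes that mark CD8+ dendritic cells were higher in CD8+ cells after culture. Of 17 measured, 15 were tested and 7 were called higher, namely Cd8a, Cxcl9, Pde1b, Cadm1, Ly75, Fuca1 and Cd24a, and 0 lower. Over all genes tested, 1.58% were higher and 1.03% lower. The median log2 difference was 2.02, beside -0.06 over all genes tested, and 7 were called without cultured CD4+ replicate 1, where 1.39% of all genes were higher and 1.27% lower. The list was chosen with earlier results of these arrays known and is no independent evidence of its direction. Without cultured CD8+ replicate 1, or without replicate 2, 4 members were called.

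For Cd8a the cultured difference was at least 8.05-fold (adjusted p = 0.000694), and the cultured DN arrays gave -17.9 and 31.3. Cxcl9, a chemokine that draws activated T cells through CXCR3, had intensities of 2671.1 and 2695.6 on the CD8+ arrays and of 70.2 and 69.6 on the CD4+ arrays. Both CD4+ values lay below the floor, and the difference in Cxcl9 was at least 27.7-fold (adjusted p = 0.000504). The DN arrays lay between, at 497.1 and 152.4. Pde1b, a phosphodiesterase of cyclic nucleotides, gave 724.3 and 783.5 against 28.1 and -5.8, at least 7.79-fold (adjusted p = 0.000504). Each of these 3 genes was called under all alternatives in which it was tested.

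Cadm1, the adhesion molecule that marks cross-presenting dendritic cells across species, had intensities of 1839.1 and 3290.0 on the CD8+ arrays and of 258.2 and 84.1 on the CD4+ arrays. Its 2 CD8+ values differed between themselves, yet both lay far above both CD4+ values, and the log2 difference was 4.01 ± 0.45 (adjusted p = 0.00143). Its other 2 tested probe sets were called too, at 3.82 ± 0.45 and, where both CD4+ arrays were below the floor, at least 2.79-fold. Ly75, the endocytic receptor DEC-205, gave 1859.0 and 1220.0 against 284.1 and 142.5 (2.88 ± 0.54, adjusted p = 0.0217). Cd24a, a heavily glycosylated surface protein, gave 1367.1 and 1458.1 against 529.3 and 378.6 (1.65 ± 0.28, adjusted p = 0.0157). Fuca1, the lysosomal α-fucosidase, gave 482.6 and 811.1 against 72.2 and 135.0 (2.58 ± 0.48, adjusted p = 0.021). These 3 calls were lost without CD8+ replicate 1, at adjusted p of 0.19 for Ly75, 0.107 for Cd24a and 0.0775 for Fuca1, and without CD8+ replicate 2, at 0.108, 0.124 and 0.186. Fuca1 was also lost without CD4+ replicate 1, at 0.0755.

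Other CD8+ subset markers, the transcription factors Irf8, Batf3 and Id2 among them, were not called. Irf8 had intensities of 1907.6 and 1098.4 on the CD8+ arrays and of 736.4 and 170.7 on the CD4+ arrays, without overlap (2.02 ± 0.66, adjusted p = 0.166). At isolation Irf8 had given 8271.2 and 5016.8 against 447.5 and 242.7, a difference of 4.28. Without cultured CD4+ replicate 1 the cultured difference was 3.06 and was called (adjusted p = 0.0309). Xcr1, the receptor for the T cell chemokine XCL1, gave 252.8 and 207.5 against 64.6 and 56.4 (adjusted p = 0.0594). Itgae, the integrin chain CD103, was below the floor on all 4 cultured arrays, after 298.1 and 344.7 on the fresh CD8+ arrays. With the experiment number as a block, Irf8 (adjusted p = 0.0128) and Xcr1 (0.0451) were called, which made 9 members higher. Batf3 (0.45, adjusted p = 0.586) and Id2 (0.13, adjusted p = 0.86) overlapped between the cultured groups.

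Several further genes separated the cultured subsets under every alternative or nearly so. Gusb, the lysosomal β-glucuronidase, had the lowest p of the named genes. Its intensities were 1721.9 and 1793.0 on the CD8+ arrays, 84.3 and 100.8 on the CD4+ arrays and 153.0 and 195.3 on the DN arrays. The CD8+ values thus stood far above all 4 others (4.17 ± 0.25 against CD4+ cells, adjusted p = 2.44e-05). Cd81, a tetraspanin of the cell surface, gave 3213.8 and 3281.5 against 259.5 and 164.3 (3.96 ± 0.40, adjusted p = 0.000738), with DN arrays at 278.0 and 180.6. Slc11a1 (Nramp1), a metal transporter of phagosomes, gave 661.4 and 986.0 against 84.5 and 65.3, at least 8.35-fold (adjusted p = 0.00143). Pdia5, a disulfide isomerase of the endoplasmic reticulum, gave 522.0 and 664.6 against 36.4 and 42.6, at least 6.1-fold (adjusted p = 0.00143). These 4 were called under all 25 alternatives.

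Lima1 and Crip1, both LIM-domain proteins, were high in CD8+ cells as well. Lima1, which binds actin, had intensities of 610.1 and 872.1 against -91.4 and -15.8, at least 7.55-fold (adjusted p = 0.00155), and missed the threshold without CD8+ replicate 2 (0.0552). Crip1 gave 3798.2 and 2866.3 on the CD8+ arrays against 434.3 and 188.6 on the CD4+ arrays (3.51 ± 0.50, adjusted p = 0.00441), and missed it without CD8+ replicate 1 (0.07). For Crip1 the DN arrays lay between both groups, at 1782.9 and 1070.8. Net1 gave 496.9 and 407.9 against 92.3 and 98.2 (2.17 ± 0.40, adjusted p = 0.0186), and was lost without CD8+ replicate 1 (0.166) or 2 (0.114). Gclc, the catalytic subunit of glutathione synthesis, gave 1168.8 and 1454.9 against 94.9 and 309.3 (2.89 ± 0.66, adjusted p = 0.0467). It was called under 7 of 25 alternatives, with adjusted p of 0.187 without CD4+ replicate 1, 0.218 and 0.272 without CD8+ replicates 1 and 2, and 0.0571 to 0.0731 without any 1 of the cultured DN, fresh CD4+ or fresh CD8+ arrays.

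**Figure D2:**
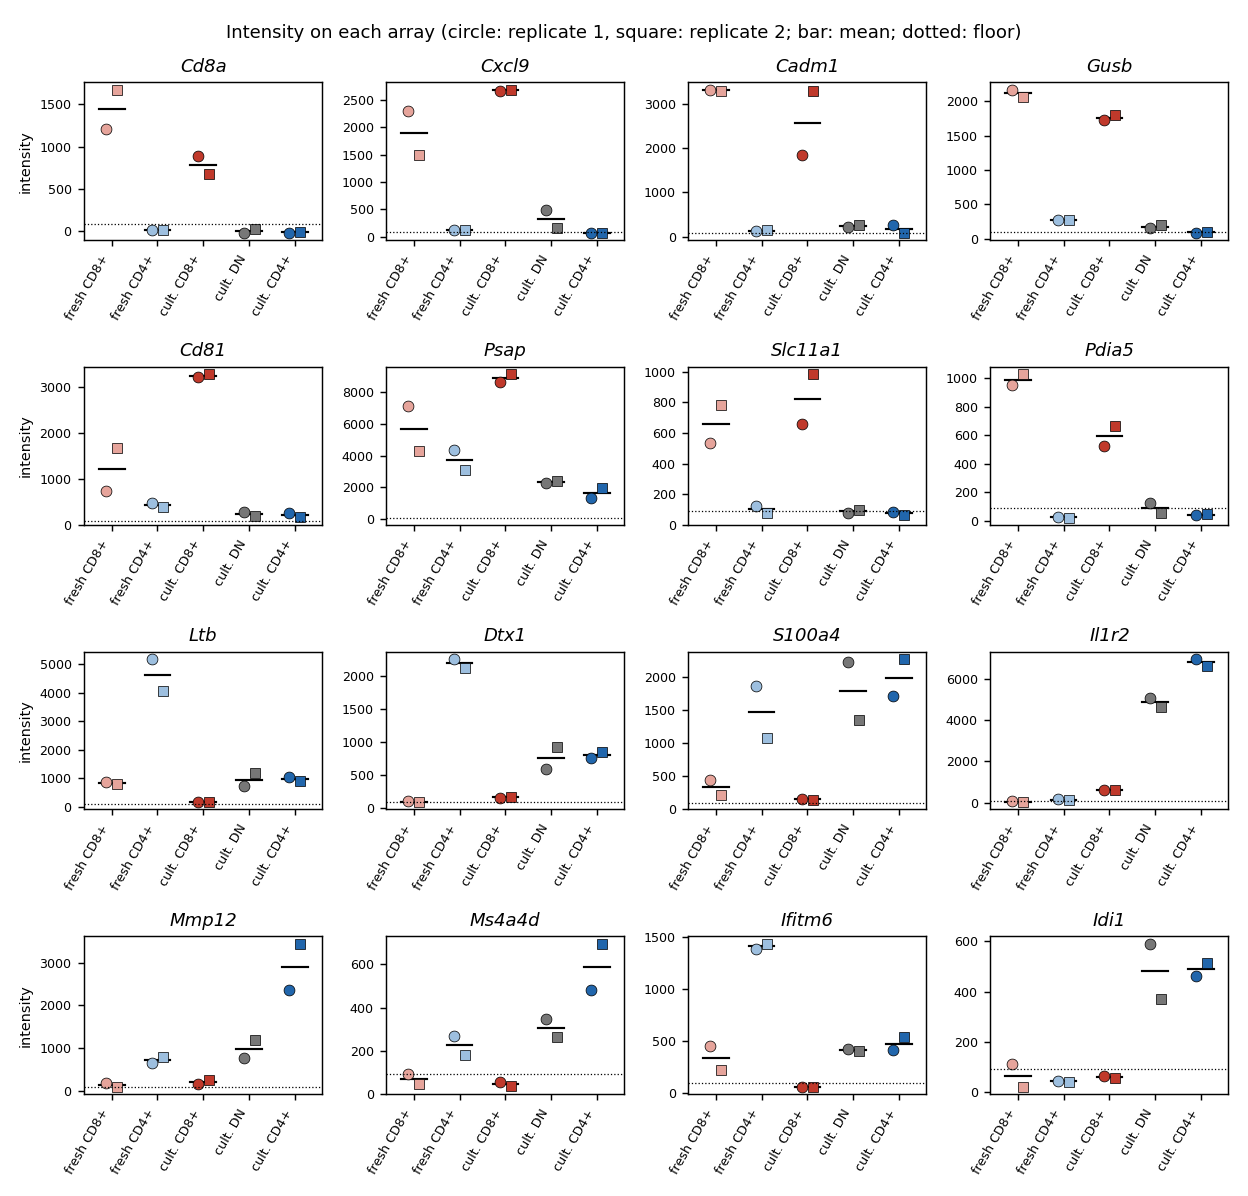
Intensity (y axis, linear, own scale in each panel) of 16 genes on the arrays of 5 groups (x axis), with a bar at the mean of each pair and the detection floor dotted. The first 8 panels show genes higher in cultured CD8+ than CD4+ cells and the last 8 genes lower, and for Gusb and Cd81 the 2 cultured DN arrays lie near the 2 cultured CD4+ arrays.

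Lysosomal genes did not move as a list, although 6 of them were higher in CD8+ cells. Of 29 measured, 28 were tested. Higher in CD8+ cells were Gusb, Fuca1, Psap, Mpeg1, Npc2 and Man2b1, and lower was Acp5. Over all genes tested, 1.58% were higher and 1.03% lower. The list's median was -0.09. It was -0.08 without cultured CD4+ replicate 1, and -0.28 and 0.18 without CD8+ replicates 1 and 2. Psap encodes prosaposin, the precursor of the saposins that help degrade sphingolipids, and had intensities of 8663.1 and 9141.0 on the CD8+ arrays and of 1356.1 and 1954.2 on the CD4+ arrays (2.45 ± 0.30, adjusted p = 0.00155). Of its other tested probe sets, 1 was called (3.40 ± 0.62, adjusted p = 0.0186, and 0.0722 without CD4+ replicate 1) and 1, near the floor, was not (adjusted p = 0.214). Npc2, which carries cholesterol out of lysosomes, gave 3573.1 and 4529.1 against 760.6 and 1040.5 (2.18 ± 0.32, adjusted p = 0.00535). Without CD8+ replicate 2 its adjusted p was 0.0894.

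The other lysosomal calls were less stable. Mpeg1, perforin-2, gave 3119.2 and 4165.8 against 572.6 and 901.3 (adjusted p = 0.0148), and was lost without CD8+ replicate 1 (0.0722) or 2 (0.133). Man2b1, the lysosomal α-mannosidase, gave 2679.7 and 3656.9 against 844.4 and 1453.7 (adjusted p = 0.046). It was called under 7 of 25 alternatives, and lost without CD4+ replicate 1 (0.186), CD8+ replicate 1 (0.14) or 2 (0.317), or any 1 of the cultured DN, fresh CD4+ or fresh DN arrays (0.0649 to 0.0778). Acp5, tartrate-resistant acid phosphatase, gave 458.2 and 220.9 against 1467.0 and 1183.3 (adjusted p = 0.0408). It was called under 8 of 25 alternatives, and lost without CD4+ replicate 1 (0.133), CD8+ replicate 1 (0.0748) or 2 (0.319), and any 1 of the cultured DN, fresh CD4+ or fresh DN arrays (0.0637 to 0.0748). The cathepsins, proteases that process antigen, gave no call. Ctss had intensities of 2565.9 and 2319.2 in CD8+ against 3452.2 and 4353.7 in CD4+ arrays (-0.67 ± 0.27, adjusted p = 0.271).

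Of the markers of CD8-negative dendritic cells, 22 were measured, 21 tested, 5 lower in CD8+ cells and 0 higher. Over all genes tested, 1.03% were lower and 1.58% higher. This list too was chosen with earlier results of these arrays known and is no independent evidence of its direction. The 5 were S100a4, Il1r2, Ltb, Dtx1 and Klf4. The list's median was -1.13, and it was -1.28 and -1.04 without cultured CD4+ replicates 1 and 2. For 13 of the 21 both CD8+ arrays lay below both CD4+ arrays, and for 3 above, against 20.5% and 20.1% of all genes tested. S100a4, a calcium-binding protein of motile cells, had intensities of 164.2 and 142.1 on the CD8+ arrays and of 1709.0 and 2277.5 on the CD4+ arrays (-3.66 ± 0.39, adjusted p = 0.00106). Il1r2, the decoy receptor for interleukin 1, gave 589.3 and 611.3 on the CD8+ arrays against 6956.0 and 6613.5 on the CD4+ arrays (-3.50 ± 0.42, adjusted p = 0.00143). On the DN arrays Il1r2 gave 5048.3 and 4642.5, and its other probe set was also lower in CD8+ cells (-3.30 ± 0.39). At isolation it had been at 71.3 and 9.7 in CD8+ and 160.7 and 123.1 in CD4+ cells. It rose in both subsets, at least 6.21-fold in CD8+ cells, whose fresh arrays were below the floor (adjusted p = 0.000535), and by 5.55 ± 0.42 (log2) in CD4+ cells (adjusted p = 3.55e-05).

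Mmp12, macrophage elastase, stood outside the list and gave the largest negative difference among probe sets above the floor on all 4 arrays. Its intensities were 141.3 and 242.3 on the CD8+ arrays, 758.0 and 1178.9 on the DN arrays and 2349.7 and 3447.8 on the CD4+ arrays (-3.92 ± 0.41 for CD8+ against CD4+, adjusted p = 0.00102). A second probe set of Mmp12 gave 39.5 and 43.7 against 771.4 and 2562.0, at least 14.5-fold lower in CD8+ cells. Ms4a4d, a 4-span membrane protein, gave 56.7 and 38.3 against 483.5 and 696.7, at least 6.01-fold lower (adjusted p = 0.00143). S100a4, Il1r2, Mmp12 and Ms4a4d were called under all 25 alternatives.

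Ltb and Dtx1 were lower in CD8+ cells both at isolation and in culture. Ltb, lymphotoxin β, a membrane ligand of the TNF family needed for the CD8-negative subset's upkeep, had intensities of 178.1 and 164.2 against 1057.0 and 894.6 in culture (-2.48 ± 0.29, adjusted p = 0.00143). Its fresh intensities were 865.9 and 804.1 against 5186.2 and 4049.3 (-2.46), so that Ltb fell alike in both subsets, by 2.26 ± 0.29 and by 2.24 ± 0.29 on the log2 scale, and their difference held. Dtx1, a ubiquitin ligase induced by Notch, gave 154.5 and 177.5 against 757.2 and 851.1 (-2.25 ± 0.28, adjusted p = 0.00168). At isolation Dtx1 had been at 108.3 and 90.0 against 2267.0 and 2131.2 (-4.40). Ifitm6, a small interferon-induced membrane protein, gave 58.0 and 55.9 against 408.0 and 536.2, at least 4.85-fold lower (adjusted p = 0.00143). These 3 missed the threshold only in the fit of the 4 arrays alone.

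Klf4, a zinc-finger factor, gave 66.4 and 117.7 against 423.6 and 359.3 (-2.05 ± 0.34, adjusted p = 0.0133) and was lost without CD8+ replicate 1 (0.132). Sirpa, the inhibitory receptor that marks the CD8-negative subset, had intensities of 18.4 and 64.4 on the CD8+ arrays against 104.0 and 475.3 on the CD4+ arrays (adjusted p = 0.147), after 1720.6 and 1523.2 on the fresh CD4+ arrays. Its other 2 probe sets were not called either (adjusted p = 0.0812 and 0.77). Without cultured CD4+ replicate 1, where Sirpa was near or below the floor, all 3 were called (adjusted p = 0.0293, 0.0215 and 0.0474). Irf4 lay at 742.0 and 138.7 against 1361.9 and 1635.8 (-2.20 ± 0.69, adjusted p = 0.153). Ccr6, a chemokine receptor, gave 132.4 and 179.6 against 461.3 and 654.1 and lay at the threshold (adjusted p = 0.0502, and 0.0451 with the experiment number as a block).

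Further genes lower in CD8+ cells were called less firmly. Man1a, a Golgi mannosidase, gave 128.2 and 123.0 against 444.6 and 758.5 (adjusted p = 0.0186), and was lost without CD8+ replicate 1 (0.132) or 2 (0.145). Its second probe set, at -1.21 ± 0.32, was not called (adjusted p = 0.0915). Ms4a6c gave 160.3 and 191.4 against 688.8 and 706.8 (adjusted p = 0.0172) and was lost without CD8+ replicate 1 (0.135) or 2 (0.107). Fabp5, a fatty acid carrier, gave 42.4 and 65.8 against 285.9 and 323.5, at least 3.16-fold lower (adjusted p = 0.0293), and H2-M2, a class I-like MHC gene, gave 190.9 and 142.4 against 949.9 and 611.9 (adjusted p = 0.0467). Fabp5 was lost without CD4+ replicate 1 (0.0609), CD8+ replicate 1 (0.225) or 2 (0.133), or any 1 of the fresh CD4+ or DN arrays (0.0519 to 0.0556). H2-M2 was lost without CD4+ replicate 1 (0.169), CD8+ replicate 1 (0.182) or 2 (0.284), or the same fresh arrays (0.0622 to 0.0723).

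Of 16 measured genes of cholesterol synthesis, 10 were tested, 3 were lower in cultured CD8+ than CD4+ cells (Idi1, Msmo1 and Sqle) and 0 higher. Over all genes tested, 1.03% were lower and 1.58% higher. The median was -1.35, and for 7 of the 10 both CD8+ arrays lay below both CD4+ arrays, against 20.5% of all genes tested. Idi1, which makes the isoprene unit's active isomer, had intensities of 64.6 and 57.7 on the CD8+ arrays against 462.2 and 514.7 on the CD4+ arrays, at least 5.05-fold lower (adjusted p = 0.0172). Msmo1, a sterol methyl oxidase, gave 24.4 and 50.7 against 166.0 and 497.2, at least 3-fold lower (adjusted p = 0.0226). Sqle, squalene epoxidase, gave 131.9 and 123.2 against 394.0 and 402.5 (-1.60 ± 0.30, adjusted p = 0.0218). The DN arrays lay at the CD4+ level, at 590.4 and 371.8 for Idi1, 259.4 and 334.6 for Msmo1 and 393.8 and 435.3 for Sqle.

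At isolation, neither Idi1, Msmo1 nor Sqle had been called between the subsets. Idi1 was 110.0 and 20.5 in fresh CD8+ and 44.5 and 41.5 in fresh CD4+ cells. The fresh CD4+ arrays were below the floor for all 3. From fresh to cultured CD4+ cells Idi1 rose at least 5.05-fold (adjusted p = 0.00226), and in CD8+ cells it was not called (adjusted p = 0.923). In CD4+ cells Msmo1 rose at least 3-fold and Sqle at least 4.13-fold (adjusted p = 0.00607 and 0.000912), and in CD8+ cells neither was called (adjusted p = 0.821 and 0.749). The difference between these culture effects was tested and not called for any of the 3 (adjusted p = 0.358, 0.405 and 0.307). Hmgcs1, at the entry to the pathway, gave 236.4 and 168.6 against 416.9 and 659.2 (adjusted p = 0.106). The 3 calls held without CD4+ replicate 1 and were all lost without CD8+ replicate 1 (0.122 for Idi1, 0.197 for Msmo1 and 0.132 for Sqle) or replicate 2 (0.133, 0.108 and 0.156).

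Antigen presentation on MHC class I gave 2 calls, both higher in CD8+ cells, among 14 tested of 15 measured genes. Of all genes tested, 1.58% were higher. The median of the list was 0.83, and for 9 of 14 both CD8+ arrays lay above both CD4+ arrays, against 20.1% of all genes tested. The calls were Cd1d1, which presents lipids, at 453.5 and 286.5 against 109.0 and 84.1 (adjusted p = 0.0272), and Psmb9, a subunit of the immunoproteasome, at 2371.7 and 2622.4 against 461.9 and 1107.6 (adjusted p = 0.0333). The peptide transporters gave 3770.1 and 3226.7 against 1922.3 and 1733.5 for Tap1 (adjusted p = 0.0951, and 0.0416 with the experiment number as a block) and 642.5 and 638.7 against 262.0 and 316.5 for Tap2 (adjusted p = 0.0735). The class I heavy chain H2-K1 (-0.24) and B2m (-0.45) were not called. Psmb9 was lost without CD4+ replicate 1 (0.116), and both calls without CD8+ replicate 1 (0.24 for Cd1d1 and 0.178 for Psmb9) or 2 (0.0965 and 0.212), or any 1 of the fresh CD4+ or fresh DN arrays (0.0539 to 0.0556 for Cd1d1 and 0.0615 to 0.0625 for Psmb9). Without a cultured DN array Psmb9 was at 0.0522 or 0.0533.

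On the class II side, 1 of 14 genes tested (H2-DMa) was higher in CD8+ cells and 0 lower, beside 1.58% and 1.03% of all genes. The count became 0 higher and 1 lower without cultured CD4+ replicate 1, the lower one being H2-Eb2, at 3.3 and 21.1 against 14.2 and 369.1 (adjusted p = 0.346 with all arrays and 0.00799 without that one). H2-DMa, a chain of the exchange factor that loads peptide, had intensities of 3086.0 and 3558.7 on the CD8+ arrays and of 608.3 and 1121.2 on the CD4+ arrays (2.00 ± 0.39, adjusted p = 0.0248), after 2817.5 and 5312.3 against 4754.7 and 4096.9 at isolation. Its second probe set was called too, at 320.2 and 456.4 against -232.3 and 0.5, at least 3.97-fold (adjusted p = 0.0186, and 0.0522 without CD4+ replicate 1). The H2-DMa call was lost without CD4+ replicate 1 (0.107) and without CD8+ replicates 1 (0.137) or 2 (0.186). The class II chains themselves were at the top of the scale on all 4 arrays, with H2-Eb1 at 16174.9 and 14676.6 against 27645.9 and 17472.2 (-0.51 ± 0.32, adjusted p = 0.49).

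Of 19 costimulation and maturation genes tested, 1 was higher in CD8+ cells and 0 lower, and of 29 NF-κB subunits and targets, 2 were higher and 0 lower. Over all genes tested, 1.58% were higher and 1.03% lower, so that no shift of either list is read from these counts. Ccr7, the receptor that guides mature dendritic cells to T cell zones, rose in both subsets, to 5190.9 and 5073.5 in CD8+ and 4373.0 and 3482.6 in CD4+ cells, from 208.3 to 434.9 in the fresh ones. The cultured subsets differed in Ccr7 by 0.40 ± 0.31 (adjusted p = 0.582). Cd40, the receptor for T cell help, had intensities of 4237.3 and 2154.2 on the CD8+ arrays against 932.5 and 506.6 on the CD4+ arrays (2.13 ± 0.48, adjusted p = 0.0467). Both CD8+ arrays lay above both CD4+ arrays but far from each other, and Cd40 was called under 7 of 25 alternatives. Its adjusted p was 0.351 and 0.108 without CD8+ replicates 1 and 2, 0.0814 without CD4+ replicate 2, and 0.0615 to 0.0807 without any 1 fresh array. Cd86 lay in the other order, at 1023.6 and 1033.5 against 1223.0 and 2569.6 (-0.78 ± 0.39, adjusted p = 0.369), and its second probe set overlapped between the groups (0.61 ± 1.19).

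Tnip1, which restrains NF-κB signalling together with A20, was the other NF-κB member higher in CD8+ cells. It gave 2313.0 and 1460.7 on the CD8+ arrays, 1109.0 and 709.7 on the DN arrays and 708.0 and 441.5 on the CD4+ arrays (1.71 ± 0.35 for CD8+ against CD4+, adjusted p = 0.0314). The call was lost without CD4+ replicate 2 (0.055), CD8+ replicate 1 (0.262) or 2 (0.098), or any 1 of the fresh CD4+ or fresh DN arrays (0.0598 to 0.0614). The subunit Relb lay at 1315.8 and 1305.2 against 1575.7 and 1412.1 and Rela at 1539.7 and 1579.4 against 1478.9 and 1227.1, and neither was called. The chemokines Ccl3, Ccl4 and Ccl5 and the cytokine Tnf differed widely between replicates and were not called, as with Ccl5 at 6024.5 and 2804.9 against 13646.9 and 4607.0.

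Ltb and Tnip1 were called in opposite directions, and the promoters of both hold a match to the κB consensus, the DNA motif bound by NF-κB. The sequences are shown because of that contrast, are taken from RefSeq's promoter table on build GRCm38.p6, run 5' to 3' on the gene's strand, and carry the match in capitals. For Ltb the window is chr17:35194380-35194469 on the plus strand, upstream of the gene, with the match 77 to 87 bases before the start site. For Tnip1 it is chr11:54962947-54963038 on the minus strand, upstream of the gene, with 3 overlapping matches 46 to 58 bases before the start site.
Ltb: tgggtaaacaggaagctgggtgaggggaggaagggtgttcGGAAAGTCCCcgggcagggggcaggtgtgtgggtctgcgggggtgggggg
Tnip1: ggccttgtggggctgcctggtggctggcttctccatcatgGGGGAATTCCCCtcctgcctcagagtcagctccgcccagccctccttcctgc
In the 250 bases before the start, searched on both strands, the consensus occurred in 7.25% of all 32851 promoters. By gene, where a match in any of a gene's promoters counts, it occurred in 11.3% of 3837 tested genes with a promoter entry. It occurred in 8 of 61 such genes higher in CD8+ cells and in 6 of 41 lower. The share by promoter and the shares by gene are unlike units and are not compared. A match is a description of the letters, not a site in use.

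Among 24 interferon-induced genes tested, 1 was higher in CD8+ cells (Cxcl9, above) and 1 lower, beside 1.58% and 1.03% of all genes tested. Ifit3, an RNA-binding antiviral protein, had intensities of 25.9 and 9.0 on the CD8+ arrays and of 463.5 and 1534.4 on the CD4+ arrays, at least 8.73-fold lower in CD8+ cells (adjusted p = 0.0332). The DN arrays gave 1055.0 and 81.4, so that replicates of 1 group spanned nearly the whole range between the other groups. The call was lost without CD4+ replicate 2 (0.063), CD8+ replicate 1 (0.166) or 2 (0.212), fresh CD4+ replicate 2 (0.0505) or a fresh DN array (0.0619 and 0.0621). Its relatives were in the same order without a call, with Ifit1 at 283.7 and 220.9 against 1768.8 and 826.5 (adjusted p = 0.116) and Ifit2 at 426.1 and 529.9 against 1510.7 and 1035.1 (adjusted p = 0.452). Isg15 (-0.61) and Mx1 (0.57) were not called either.

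The promoter of Ifit3 holds 2 matches to a pair of GAAA runs with any 2 bases between them, the core read by interferon-stimulated factors, and is shown from the same table, in the window chr19:34583333-34583456 on the plus strand, upstream of the gene. The matches, in capitals, lie on the opposite strand, 112 to 156 bases before the start site.
Ifit3: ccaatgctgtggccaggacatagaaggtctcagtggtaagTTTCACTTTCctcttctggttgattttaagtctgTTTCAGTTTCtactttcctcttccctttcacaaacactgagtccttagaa
Searched in the same 250 bases on both strands, the motif occurred in 2.98% of all promoters. By gene, counted as above, it occurred in 3.39% of tested genes with a promoter entry. It occurred in 4 of 61 such genes higher in CD8+ cells and in 4 of 41 lower.

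Genes of cell death and survival gave 2 calls among 21 tested, both higher in CD8+ cells, beside 1.58% higher of all genes tested. Bcl2l11, the death-promoting protein BIM, had intensities of 5128.8 and 4075.2 against 1623.3 and 1312.4 (1.65 ± 0.33, adjusted p = 0.0282). It rose in both subsets, by 4.09 ± 0.33 in CD8+ and 3.43 ± 0.33 in CD4+ cells, from 120.4 to 309.7 in the fresh ones. Its other 2 tested probe sets gave 1.75 ± 0.50 and 0.24 ± 0.43 and were not called (adjusted p = 0.119 and 0.821). Bid, which links death receptors to mitochondria, gave 228.5 and 292.2 against 19.7 and 71.1, at least 2.69-fold (adjusted p = 0.0266). Without CD8+ replicates 1 and 2, Bcl2l11 was at 0.227 and 0.133 and Bid at 0.135 and 0.209. Without CD4+ replicate 1 Bid was at 0.0874. Without a fresh CD4+ array Bcl2l11 was at 0.0539 or 0.0546 and Bid at 0.052 or 0.0529, and without fresh DN replicate 2 Bid was at 0.0506.

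Of 24 immediate-early genes tested, 2 were lower in CD8+ cells (Klf4, above, and Rgs2) and 0 higher, beside 1.03% and 1.58% of all genes. Rgs2, which shortens G protein signals, gave 342.4 and 238.9 against 790.1 and 1198.5 (-1.76 ± 0.32, adjusted p = 0.0191), and was lost without CD8+ replicate 1 (0.0722) or 2 (0.177). Fos, at 1925.4 and 1452.1 against 1591.9 and 1259.5, overlapped between the groups. Of 23 heat shock genes and chaperones, 0 were called, and Hsp90aa1 gave 2522.0 and 2722.6 against 5993.1 and 7147.4 (adjusted p = 0.0806, and 0.049 with the experiment number as a block). Of 33 genes of oxidative phosphorylation, 14 of glycolysis and 33 of the cell cycle, 0 were called. Without cultured CD4+ replicate 2, the median was 0.61 for oxidative phosphorylation, 0.78 for glycolysis, 0.47 for cell cycle and -0.29 for heat shock. The median of all genes tested was -0.09 in that fit. Some members of each of these lists were called there, but calls over all genes tested rose too. The fit leaves 1 cultured CD4+ array, so that no shift of a list is read from these calls. With the block the cell cycle list gave 2 higher, Aurkb and Cks1b. For oxidative phosphorylation the median with all arrays was 0.43. For 16 of 33 both CD8+ arrays lay above both CD4+ arrays, against 20.1% of all genes tested. Flt3, the growth factor receptor of dendritic cells, was the 1 call among 13 general dendritic cell genes, beside 2.62% of all genes tested. It gave 1932.0 and 1857.5 against 848.4 and 613.1 (1.39 ± 0.29, adjusted p = 0.0333), while its second probe set, at 0.04 ± 0.43, was not called. Flt3 was lost without CD4+ replicate 2 (0.0598), CD8+ replicate 1 (0.217) or 2 (0.186), or a fresh CD4+ array (0.0661 and 0.0662).

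**Figure D3:**
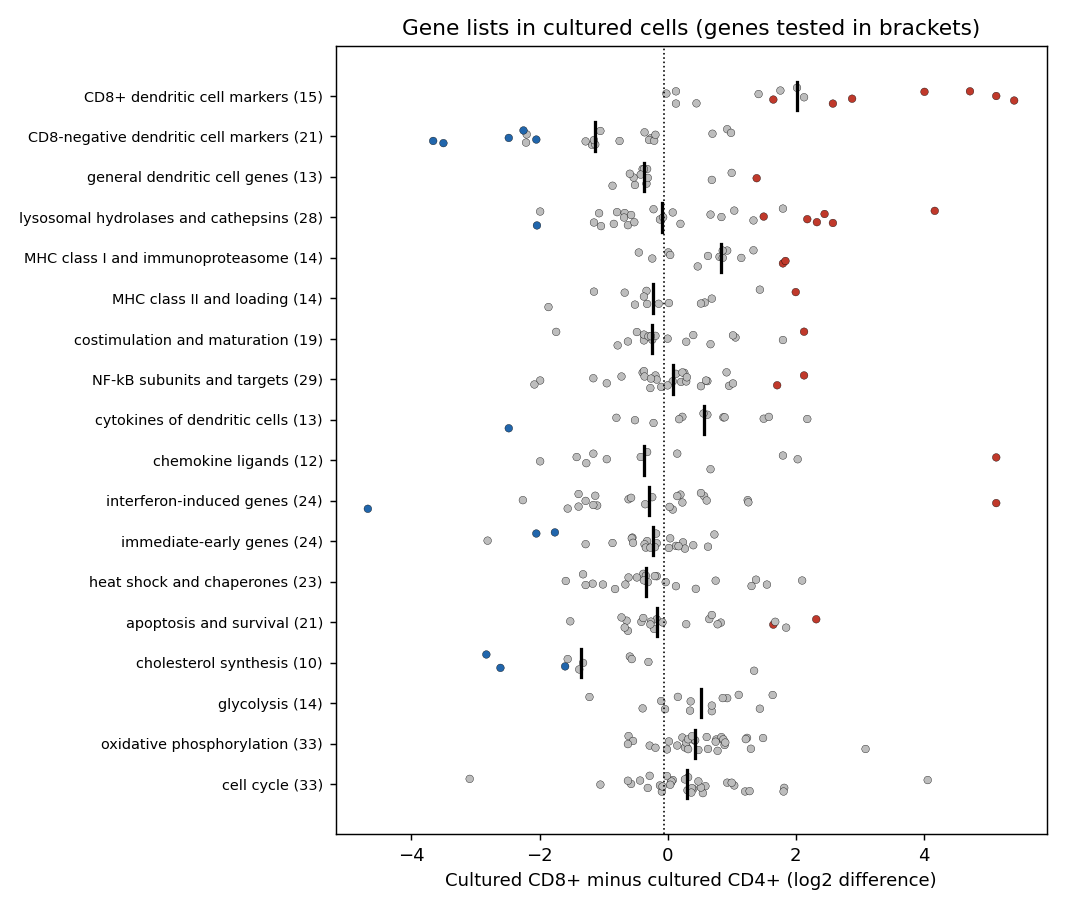
Log2 difference between cultured CD8+ and cultured CD4+ cells (x axis) of each tested gene in 18 gene lists (y axis, with the number tested), with called genes in red or blue, a bar at each list's median and a dotted line at the median of all genes tested. Points are spread vertically for visibility. The medians of the 2 subset marker lists, 2.02 and -1.13, and of cholesterol synthesis, -1.35, lie farthest from the line.

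At isolation, the same subsets differed in 122 probe sets (1.98%), 63 higher in CD8+ cells (1.02%) and 59 lower (0.958%). That count was 30 and 26 without fresh CD4+ replicates 1 and 2, 52 without fresh CD8+ replicate 1, 202 and 197 without cultured CD4+ replicates 1 and 2, and 192 with the block. The fresh and cultured comparisons share no arrays, but the fit gave each probe set 1 estimate of its spread for both. A probe set of small spread is thus called more readily in both. Over all tested probe sets, 2.29% were called in culture. Of the 122 fresh calls, 0 were called there in the opposite direction, and 116 kept their sign. The number called in the same direction was 44 (36.1% of the fresh calls and 31.2% of the cultured ones). With the experiment number as a block the count was 72. It was 69 without cultured CD4+ replicate 2, 24 and 17 without CD8+ replicates 1 and 2, and 19 and 15 without fresh CD4+ replicates 1 and 2. The median difference of the 63 went from 2.65 fresh to 1.44 in culture and that of the 59 from -2.16 to -1.28. The fresh values chose these probe sets, so that their fresh medians are a description only. Over all 6159 probe sets the cultured and fresh differences correlated at 0.274 (Pearson's r across probe sets, which are not independent).

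Some genes called between the fresh subsets were not called in culture. Relb, the NF-κB subunit tied to dendritic cell maturation, had intensities of 370.0 and 416.6 on the fresh CD8+ arrays and of 1796.9 and 1614.9 on the fresh CD4+ arrays, and the cultured groups lay within 1305.2 to 1575.7. It rose by 1.73 ± 0.23 in CD8+ cells (adjusted p = 0.00151), against -0.19 ± 0.23 in CD4+ cells (adjusted p = 0.568). Mmp9, gelatinase B, gave 346.3 and 364.1 on the fresh CD4+ arrays and was below the floor on all 4 cultured ones. Ccnd1, cyclin D1, gave 2451.2 and 2460.6 on the fresh CD4+ arrays and 598.8 and 668.3 on the cultured ones, where the CD8+ arrays gave 631.0 and 600.3. Plxnd1, a semaphorin receptor, went from 445.2 and 480.3 to 167.4 and 200.4 in CD4+ cells and was below the floor in CD8+ cells in both states, so that the cultured groups still did not overlap (adjusted p = 0.107).

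In the other direction, genes such as Psap and Cd81 were called in culture and had not been at isolation. Psap gave 7132.0 and 4267.2 against 4374.7 and 3091.3 at isolation (0.59, adjusted p = 0.536), overlapping between the subsets, and Cd81 gave 745.9 and 1668.8 against 472.0 and 382.0 (1.39, adjusted p = 0.126). Of the 87 probe sets higher in cultured CD8+ cells, 19 had a fresh difference under 0.5 (log2), and of the 54 lower, 17 had one that did not reach 0.5 in that direction.

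The difference between the cultured and the fresh subset difference was tested itself. Limma's interaction test called 0 probe sets, with a smallest adjusted p of 0.307 and 525 at an unadjusted p under 0.05. Without cultured CD4+ replicate 2 it called 162. The lowest p with a positive sign were those of Bcl3, Relb, Dtx1, Ccnd1, Mmp9 and Uvrag, and with a negative sign those of Ppt2, Tubb2a, Cd86, Sqle, Cd24a and Crybg1. Bcl3, an atypical IκB protein, lay at 83.5 and 77.3 against 316.3 and 266.1 at isolation and at 455.0 and 332.1 against 232.3 and 167.4 in culture, a reversal of the order of the subsets (interaction adjusted p = 0.307, with the fresh CD8+ values below the floor). Tubb2a, a β-tubulin, went from 1108.3 and 1478.8 against 244.5 and 257.4 to 662.3 and 651.2 against 660.3 and 592.1 (interaction -2.27 ± 0.44, adjusted p = 0.307).

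**Figure D4:**
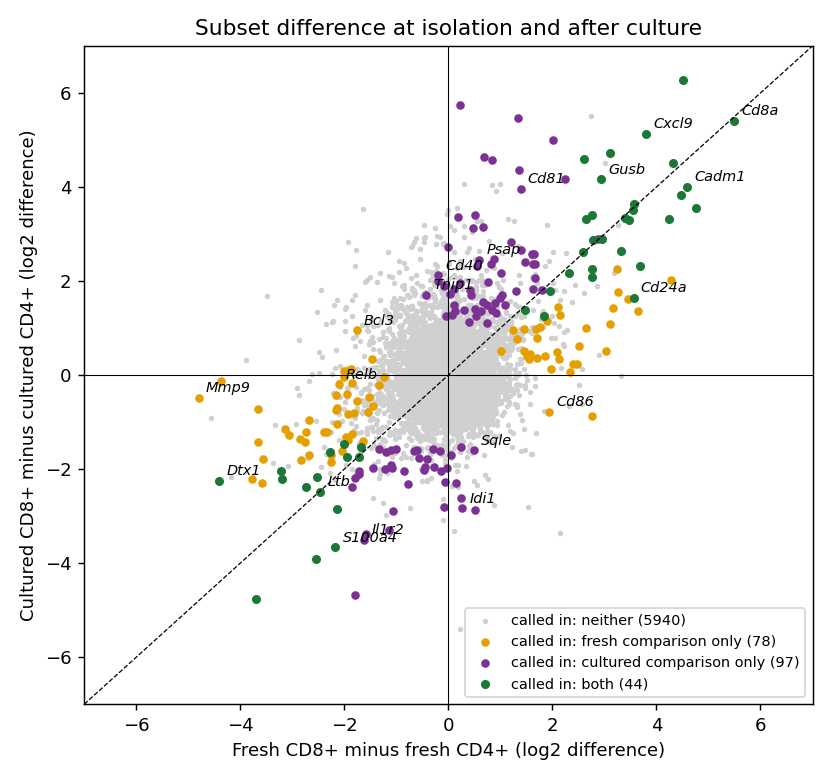
Log2 difference between CD8+ and CD4+ cells at isolation (x axis) and in culture (y axis) for 6159 probe sets, coloured by the comparison in which each was called, with the dashed line of equal difference. The 44 probe sets called in both (green) have the same sign in both, and Relb and Mmp9 lie near 0 on the cultured axis.

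The weight of the array that stood apart can be read from the difference against each CD4+ array alone. For Gusb the 2 CD4+ arrays gave nearly the same value, 84.3 and 100.8, and for Il1r2 6956.0 and 6613.5. For Psmb9 they gave 461.9 and 1107.6, and for Ifit3 463.5 and 1534.4. The fit without cultured CD4+ replicate 1 gave 151 calls, with 76 higher (1.23%) and 75 lower (1.22%), in place of 87 and 54, a share of lower calls that was larger than with all arrays. Without the 3 arrays of high Gapdh ratio, it gave 317 calls, with 150 higher and 167 lower, and 136 of the 141 were among them.

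**Figure D5:**
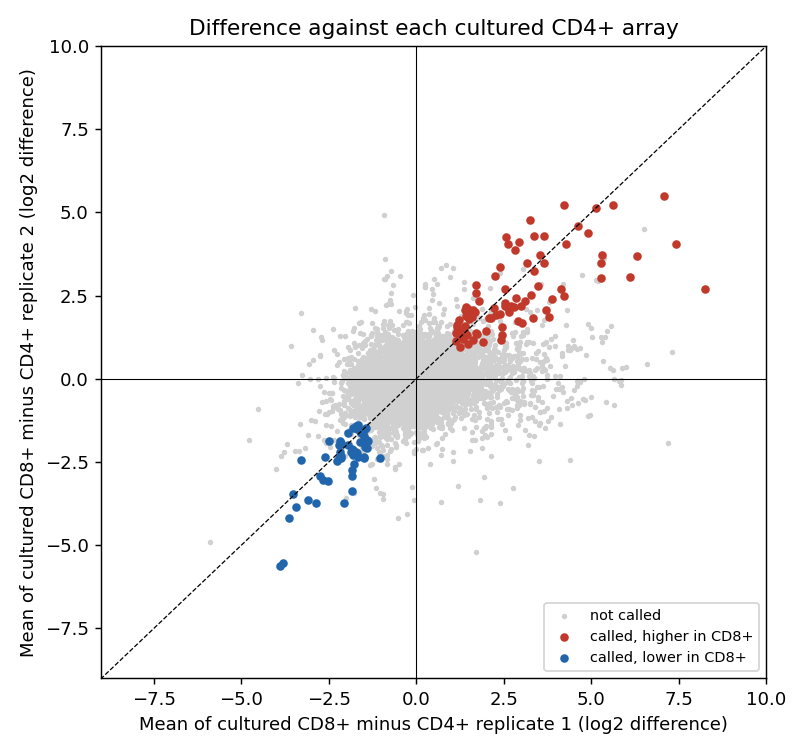
Mean of the 2 cultured CD8+ arrays minus cultured CD4+ replicate 1 (x axis) and minus replicate 2 (y axis), as log2 differences of each tested probe set, with the dashed line of equal difference. All 141 called probe sets lie on the same side of 0 on both axes, and many probe sets that were not called lie far from 0 on the x axis only.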

How the data were processed

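RNA of 12 samples in 6 groups of 2 was hybridised to oligonucleotide arrays. Each deposited value is an Average Difference intensity, globally scaled by the authors, per the labels. The software is not given in the sources used here. One label of fresh CD8+ replicate 1 says CD4 positive, while its title and source say CD8+, as which it was used. All 12 value columns of the table were matched by sample.

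Of 12488 probe sets, 66 controls were left out. The platform annotation, which can be old, gave 1 gene symbol to 10833 of the others, several to 396 and none to 1193, and 10817 identifiers were found in the RefSeq gene table, with 0 symbols changed. Only probe sets with 1 symbol were named. No further normalization was applied, and the trimmed mean was 150.0 on every array. Each intensity x was transformed as log2 of the mean of x and sqrt(x² + c²), a generalised log. The noise constant c was 45.69, the median of the arrays' noise, where noise means the square root of the mean squared negative value. This understates the change of dim probe sets, and values below 0 can inflate it. The detection floor was 91.38, and 6159 probe sets above it on at least 2 of 12 arrays were tested. Where a group was below the floor on both arrays, a fold compares the bright group's log-scale mean with that of the dim group after its values were raised to the floor, and is a lower bound.

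Limma 3.58.1 in R 4.3.3 was fitted with 1 mean per group (6 residual degrees of freedom, median prior 5.09), with an intensity trend, robust estimation and Benjamini-Hochberg adjustment over the 6159. It was tested on simulated data. With 2 arrays a group, an exact permutation test of these 4 arrays could not pass the threshold. Errors of log2 differences are standard errors of the fit. The array number limits the precision. A gene with several probe sets was represented by the one of highest mean.

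The groups share experiment numbers in the titles. The deviations of same-numbered arrays from their group means correlated in all 15 pairs of groups (0.106 to 0.444). For the cultured CD8+ and CD4+ arrays the correlation was 0.285. The labels do not say what the numbers mark, so the main fit used no block and did not pair the samples. A fit with the experiment number as a block was run as an alternative. Other alternatives were the offset, a hard floor, quantile normalization, the filter, plain eBayes, array weights, the arrays fitted, leaving out each array, and leaving out those of a Gapdh ratio above 1.2.

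Members, gene lists and tests were chosen with earlier results of these data known. Named genes came from a rule. It took the 10 higher and 10 lower calls of largest difference above the floor on all 4 arrays, the 6 and 6 of largest bound, up to 4 of lowest p from each dendritic cell list and 2 from each list of other cells, the 8 and 8 of lowest p at isolation, the 6 and 6 of the interaction, and Cd8a, Cd4 and Itgax. Other list members are named as examples, and were chosen after their values were seen. Python 3.11.15 with pandas 2.3.3, numpy 2.4.6 and matplotlib 3.10.9 prepared tables and figures.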

Additional observations from a re-analysis of the deposited data

Results flagged for a closer look

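3 results, for Cd40, Tnip1 and Sqle, had the 2 subsets in opposite order at isolation and in culture, with every array of a group on its side, and Msmo1 did so only by values below the floor. At isolation none of these was called between the subsets (adjusted p = 0.971 for Cd40). Other named genes, such as Bcl3, Uvrag and Crybg1, changed order in the same way. How often this occurs over all probe sets was not counted. For Cd40 the cultured difference minus the fresh one was 2.33 on the log2 scale, from 255.6 and 236.1 against 276.7 and 286.8 at isolation to 4237.3 and 2154.2 against 932.5 and 506.6 in culture. For Tnip1 it was 2.15, from 319.3 and 467.8 against 533.2 and 511.3 to 2313.0 and 1460.7 against 708.0 and 441.5. For Msmo1 it was -2.86, from fresh values that were all below the floor and so have no usable order, to 24.4 and 50.7 against 166.0 and 497.2. For Sqle, whose fresh CD4+ arrays were below the floor, it was -2.10, from 105.5 and 114.8 against 66.3 and 84.5 to 131.9 and 123.2 against 394.0 and 402.5. Limma's interaction test called none of them (adjusted p = 0.503 for Cd40, 0.358 for Tnip1, 0.405 for Msmo1 and 0.307 for Sqle).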

How the results depend on the processing

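The 141 calls between cultured CD8+ and CD4+ cells became 30 with array weights, 20 when only the 4 arrays compared were fitted, 30 with only the 6 cultured arrays, and 317 when the 3 high-Gapdh arrays were dropped. Leaving out each array in turn gave 28 to 551. The offset, hard floor, filter, quantile normalization and plain eBayes gave 111 to 152. The fit of only the 8 CD8+ and CD4+ arrays gave 67, with 45 higher and 22 lower. With the replicate block the count was 207, and all 141 were among them. The interaction went from 0 calls to 1 with plain eBayes, 7 without the high-Gapdh arrays, 0 with the replicate block and 0 to 162 on leaving out each array. The 44 fresh calls also called in culture became 20 with array weights, 14 with the 4 arrays, 72 with the replicate block, 90 without the high-Gapdh arrays, and 15 to 69 on leaving out each array. The fits of 4, 6 or 8 arrays have fewer residual degrees of freedom. Array weights came out equal for both arrays of each group (0.373 for cultured CD4+), so they could not set replicate 1 apart from replicate 2. The cause of the other shifts was not tested. The precision is limited by 2 arrays a group and by values below the floor, which give bounds only.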

Other observations

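Outside the lists and the rule for named genes, 2 receptors that act together in signalling by ligands of the TGF-β family were higher in cultured CD8+ cells, and they were singled out after their values were seen. Acvrl1, a type I receptor, had intensities of 209.4 and 417.3 against 41.4 and 57.0, at least 3.08-fold (adjusted p = 0.0225). A second probe set of Acvrl1 gave at least 4.04-fold (adjusted p = 0.0161), and its remaining probe set, of 147.3 and 156.2 against 159.5 and 84.0, was not called (adjusted p = 0.705). The first was lost without CD4+ replicate 1 (0.0656), and both calls without CD8+ replicate 1 (0.0563 and 0.0719) or 2 (0.214 and 0.156). Eng, endoglin, the co-receptor of Acvrl1, gave 113.4 and 101.1 against -61.3 and -3.7, at least 1.15-fold (adjusted p = 0.0172). Its CD8+ values lay only just above the floor, and with values raised to the floor it was not called (0.813). Without CD8+ replicates 1 and 2 its adjusted p was 0.132 and 0.112.

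Map3k1, a kinase upstream of JNK, and Cdkn2b, an inhibitor of the cell cycle, were lower in cultured CD8+ cells and also stood outside the lists. Map3k1 had intensities of 337.8 and 423.3 against 1324.6 and 1668.6 (-1.97 ± 0.44, adjusted p = 0.046), and a second probe set of it was called too (-2.28 ± 0.45, adjusted p = 0.0261). The first was called under 6 of 25 alternatives, with 0.0751 and 0.0631 without CD4+ replicates 1 and 2, 0.274 and 0.181 without CD8+ replicates 1 and 2, and 0.0621 to 0.0769 without any 1 of the cultured DN, fresh CD4+ or fresh DN arrays. The second was lost without CD4+ replicate 1 (0.0509), CD8+ replicate 1 (0.221) or a fresh DN array (0.0509 and 0.0519). Cdkn2b gave 20.3 and 27.0 against 213.6 and 312.8, at least 2.69-fold lower (adjusted p = 0.0177), after 3.6 to 11.9 on the fresh arrays of both subsets, and was lost without CD8+ replicate 1 (0.132) or 2 (0.108).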
